A study of Caenorhabditis elegans with 2 samples.

Results

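The genes described here encode the DREAM complex and the retinoblastoma (Rb) pathway of Caenorhabditis elegans. They are lin-35, efl-1, dpl-1, lin-9, lin-37, lin-52, lin-53 and lin-54, chosen by symbol, and all 8 were found among the 19973 protein-coding genes annotated on the 6 nuclear chromosomes. The measurement was binding of CEH-82, a homeodomain protein, by chromatin immunoprecipitation and sequencing (ChIP-seq) in whole L1 larvae, taken as a pool of males and females. The strain, OP212, had the genotype unc-119(ed3) III; ddEx58 and expressed CEH-82 (F45C12.2) with GFP-FLAG fused at its C-terminus. There was 1 group of 2 biological replicates and no group to set it against. The labels call the antibody ceh-82 although the tag is GFP-FLAG, and they speak of an insertion although ddEx is a name for extrachromosomal arrays, so how the tagged gene was carried and recovered is unclear. No library other than these was analysed, so whether the peaks depend on CEH-82 was not tested. The read depth of the replicates is unknown.

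DREAM is a repressor assembled from an Rb-family pocket protein, an E2F transcription factor with its DP partner, and the MuvB core. In worms LIN-35 is the pocket protein, EFL-1 the E2F, DPL-1 the DP protein, and LIN-9, LIN-37, LIN-52, LIN-53 and LIN-54 form MuvB. EFL-1 with DPL-1 binds E2F sites, and LIN-54 binds the cell cycle homology region, so that the complex reaches DNA through both. DREAM holds down cell cycle genes in resting cells, and in larvae it also keeps germline genes silent in somatic tissue. Most of its genes were found as class B synthetic multivulva (synMuv B) genes, whose loss together with a class A gene gives ectopic vulval tissue.

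Reproducible CEH-82 peaks had summits within 500 bp of the starts of 5 of the 8 genes, against 8.18% of all protein-coding genes. The 5 were lin-35, efl-1, lin-9, lin-53 and lin-54. The summits at lin-53 and lin-54 lay nearer to the start of another gene. With each summit given only to its nearest start, 3 of the 8 were left, against 6.19% of all genes. At dpl-1 there was only a weak peak outside the list of reproducible peaks, and lin-37 and lin-52 had no summit within 500 bp of their annotated gene starts in any list. The bases around the summits are given for efl-1, lin-9 and lin-54, whose peaks were among the strongest of the series. Those at dpl-1 show the weak case, and those at ZK418.5 the peak nearest to lin-37. Each runs 5′ to 3′ on the strand of the named gene, from the RefSeq sequence of WBcel235 (ce11). Capitals mark matches to the motifs searched, namely TTTGAA (read TTCAAA on the other strand), the E2F form TTCCCGC, and GAGAGA (read TCTCTC). The windows of lin-53, whose peak ranked above that of efl-1, and of lin-35 are not printed. All printed windows hold TTTGAA, but it lay within 50 bp of only 3 of the 5 bound summits. At efl-1 it lay within 100 bp only, hence the wider window, and at lin-35 not even there.

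efl-1, 100 bp either side of the summit, chrV:16965740-16965940, minus strand: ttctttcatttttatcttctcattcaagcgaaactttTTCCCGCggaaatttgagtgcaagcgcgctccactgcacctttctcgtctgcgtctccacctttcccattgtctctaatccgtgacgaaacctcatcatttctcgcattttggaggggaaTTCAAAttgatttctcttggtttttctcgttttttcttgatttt
lin-9, 50 bp either side, chrIII:8904235-8904335, minus strand: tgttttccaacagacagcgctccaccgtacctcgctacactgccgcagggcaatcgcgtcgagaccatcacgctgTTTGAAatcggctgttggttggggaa
lin-54, 50 bp either side, chrIV:13240636-13240736, plus strand: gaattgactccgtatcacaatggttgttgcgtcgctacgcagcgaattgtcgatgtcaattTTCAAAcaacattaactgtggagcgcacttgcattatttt
dpl-1, 50 bp either side, chrII:9169641-9169741, plus strand: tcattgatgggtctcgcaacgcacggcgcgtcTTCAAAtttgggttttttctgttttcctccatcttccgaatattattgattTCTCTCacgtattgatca
ZK418.5, 50 bp either side, chrIII:7074121-7074221, minus strand: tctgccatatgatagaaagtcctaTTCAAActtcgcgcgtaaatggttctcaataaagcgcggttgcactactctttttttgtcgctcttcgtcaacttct

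The deposited peak lists on ce11 were a relaxed list of 30000 peaks for each replicate, a relaxed list of 20459 peaks from the pooled data, and an optimal list of 2346 peaks derived from those 3 by their irreproducible discovery rate (IDR). Each peak carries the authors' signal, for which no unit is given. It is used only to order peaks within a list, and rank 1 is the strongest. All 2346 optimal peaks carry the signal of the same peak in the pooled list, and these ran from 30.9 to 619. Distances run from the annotated gene start to the summit on the strand of the gene, so a negative distance is upstream. A gene was called bound when an optimal summit lay within 500 bp of its start on either side. No test was run over the 8 genes, because they were chosen with earlier results of these data known.

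By this rule 5 of the 8 genes were bound, against 1633 of all 19973 protein-coding genes, which is 8.18% (95% Wilson interval 7.8 to 8.56%). The interval covers counting error only, and neighbouring genes can share a peak. All 5 summits were upstream, and with only the 500 bp upstream counted the same 5 were called, against 7.53% of all genes. The count depended on how far a start may lie from a summit. At 250 bp 3 of 8 were bound, namely lin-35, efl-1 and lin-9, against 5.33% of all genes, since the summits at lin-53 and lin-54 lay 252 and 358 bp away. With each summit given only to its nearest start the same 3 were bound, against 6.19% of all genes, since lin-53 and lin-54 each lay farther from a shared summit than the neighbouring gene did. Any pooled relaxed summit within 500 bp was found at 6 of 8 genes, the 5 above and dpl-1, against 27.4% of all genes. In the relaxed list of replicate 1 the same 6 had a summit within 500 bp, against 35.1% of all genes, and in that of replicate 2 the 5 without dpl-1, against 35.0%.

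**Figure D1:**
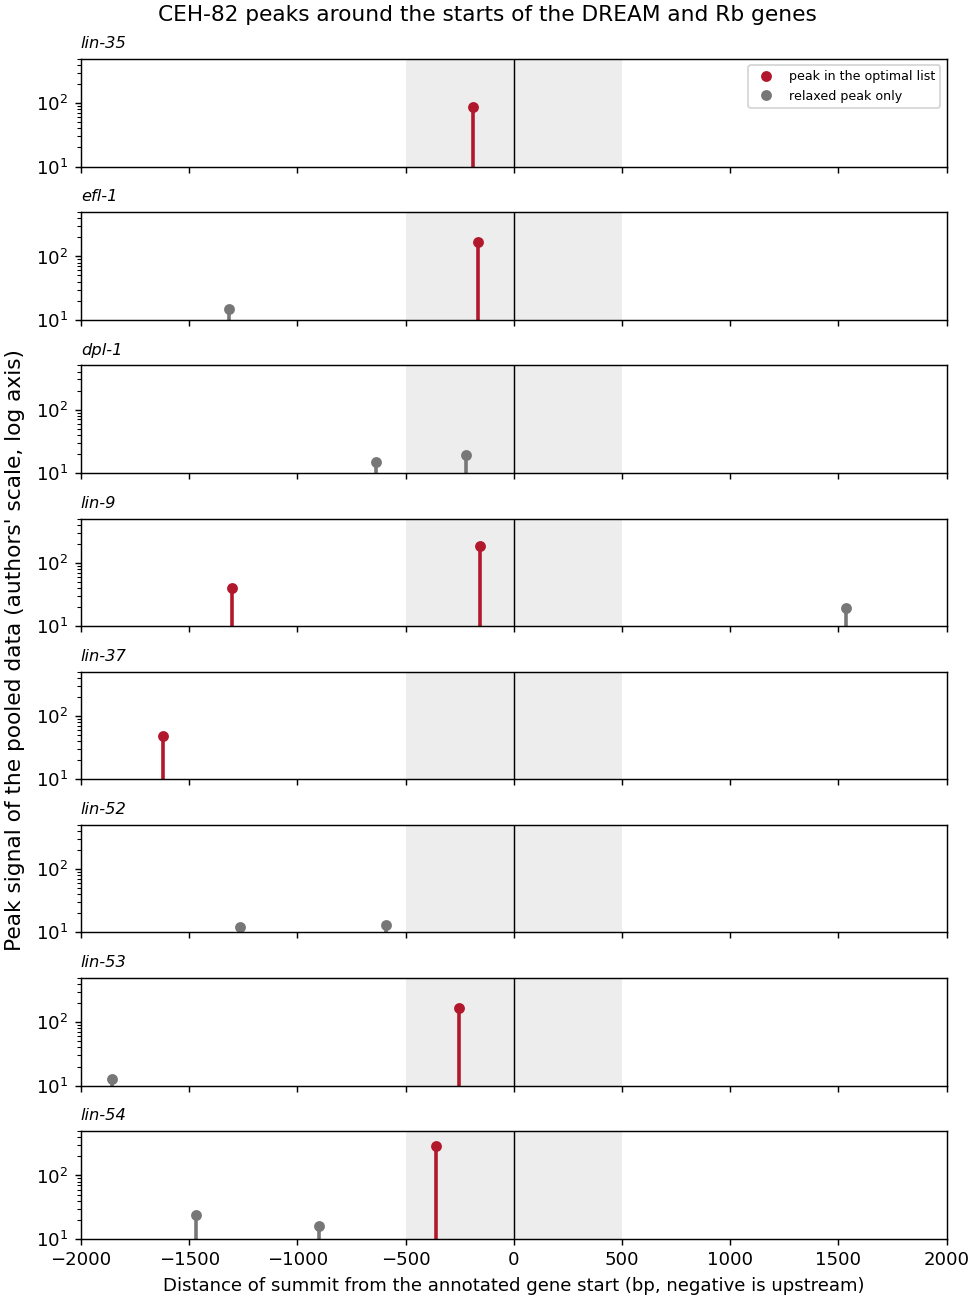
Peaks of the pooled relaxed list within 2000 bp of each gene start, drawn by the distance of the summit from the start in bp (negative is upstream) and by the authors' signal on a log axis. Red peaks are in the optimal list, grey ones are not, and the shaded band is the 500 bp either side of the start. The genes lin-35, efl-1, lin-9, lin-53 and lin-54 each have a red peak just upstream, dpl-1 has only grey peaks, and the band is empty at lin-37 and lin-52.

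The pocket protein gene lin-35 lies at 5807709 to 5815637 on the plus strand of chromosome I. Its peak had a signal of 88.0 and rank 573 in the pooled data, with the summit at 5807519, 190 bp upstream and outside protein-coding genes. In replicate 1 the peak had a signal of 25.4 and rank 1186, and in replicate 2 a signal of 54.7 and rank 473. The replicates thus placed lin-35 at ranks that differed 2.51-fold, and 86.5% of the 2333 optimal peaks matched in both replicates differed by less (median 1.48-fold). The summits of the replicates were 10 bp apart. This region is a divergent promoter, with vps-51, a subunit gene of a vesicle tethering complex at the Golgi, starting 418 bp away on the other strand. The summit was 228 bp upstream of vps-51, so it lay between the starts and nearer to lin-35.

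The E2F gene efl-1 (V, 16958590 to 16965675, minus strand) carried a peak of signal 167 and rank 144. Its summit at 16965840 was 165 bp upstream of the start. The replicates agreed closely on it, with a signal of 72.7 and rank 161 in replicate 1 and a signal of 91.8 and rank 151 in replicate 2. No other annotated gene started within 500 bp of this summit, with piRNA (small RNA) genes left out of the search. The next pooled peak, 1314 bp upstream and inside the neighbouring gene fbxa-90, was outside the optimal list with a signal of 14.9 and rank 8835.

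The gene of its partner, dpl-1 (II, 9169910 to 9172565, plus strand), differed from efl-1. Its start lies inside T23G7.2, a gene on the opposite strand. The nearest pooled summit, at 9169691 and 219 bp upstream, had a signal of 18.9 and rank 4842. The signal was 1.64-fold below the lowest signal of the optimal list, although 76.4% of pooled relaxed peaks were weaker still. This summit fell in an exon that T23G7.2 has only in a transcript with no annotated coding sequence. Replicate 1 had a summit 233 bp upstream, with a signal of 13.8 and rank 2621, just outside its 2346 strongest peaks. Replicate 2 had none within 500 bp, and its nearest summit, 627 bp upstream, had a signal of 9.53 and rank 8165. The nearest optimal summit was 7376 bp downstream of the start, at sec-5 (exocyst subunit) and pir-1 (RNA phosphatase), with a signal of 36.8. The E2F gene thus had a strong peak in both replicates. The DP gene had no optimal peak, and of the replicates only replicate 1 had a summit within 500 bp of it.

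Among the MuvB genes, lin-9 (III, 8900237 to 8904131, minus strand) had a peak of signal 182 and rank 125. Its summit at 8904285 was 154 bp upstream. Replicate 1 gave it a signal of 94.6 and rank 94, and replicate 2 a signal of 90.8 and rank 157. No other gene start, piRNA genes left out, lay within 500 bp of this summit. A separate optimal peak 1304 bp upstream (signal 40.4, rank 1752) lay 180 bp upstream of unc-32, a gene for a subunit of the vacuolar ATPase that is read away from lin-9. By distance the stronger peak thus belonged to lin-9 and the weaker one to its divergent neighbour. Which gene either peak acts on was not tested.

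The strongest peak of the set stood at lin-54, the gene for the MuvB subunit that contacts DNA (IV, 13241044 to 13243401, plus strand). Its signal was 296, rank 34 of 2346, with the summit at 13240686. Replicate 1 gave a signal of 124 and rank 43, and replicate 2 a signal of 171 and rank 30. The summits of the replicates were 1 bp apart. Replicate 1 also had a weak summit nearer to the start, 326 bp downstream in a coding exon, with a signal of 5.37 and rank 25342. The main summit was 358 bp upstream of lin-54 and 35 bp upstream of rpl-12, a ribosomal protein gene that starts 393 bp away on the other strand. By distance this peak belonged to rpl-12 rather than to lin-54, and the lists do not show which of the genes, if either, it acts on. The annotated transcripts of lin-54 start within 7 bp of each other, so the choice of start does not move this distance.

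The gene for the histone-binding subunit, lin-53 (I, 9618196 to 9619760, minus strand), had a peak of signal 171 and rank 141. Its summit at 9620012 was 252 bp upstream. Replicate 1 gave a signal of 80.3 and rank 133, and replicate 2 a signal of 92.8 and rank 149. The peak was shared with nra-2, a nicalin homologue that starts 467 bp away on the other strand and lay 215 bp from the summit. LIN-53 also works outside DREAM, in chromatin assembly and deacetylase complexes. Its paralog rba-1, which lies just downstream on the same strand, was not bound.

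The remaining MuvB genes, lin-37 and lin-52, were not bound. Both start close behind another gene on the same strand. The gap from lin-37 (III, 7070890 to 7072552, minus strand) to ZK418.5 is 60 bp, and the gap from lin-52 (III, 9824083 to 9824750, minus strand) to ZK632.9 is 126 bp. For lin-37 the nearest summit in all 4 lists was the same peak, 1619 bp upstream in the optimal list, with a signal of 49.0 and rank 1384. It ranked 1527 in replicate 1, with a signal of 21.0, and 1430 in replicate 2, with a signal of 26.6. This peak lay 320 bp upstream of ZK418.5. The gene directly upstream of lin-37 was therefore bound by the rule used here, while lin-37 was not.

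For lin-52 no such peak was seen at the gene upstream. The nearest pooled summit was 592 bp upstream of lin-52, in an intron of ZK632.9 and 90 bp downstream of its start, with a signal of 12.9 and rank 13367. In replicate 1 the nearest summit was 1255 bp upstream with a signal of 7.13 and rank 12984. In replicate 2 it was 590 bp downstream with a signal of 6.95 and rank 18950, which is 410 bp from the other annotated transcript start of lin-52. Replicate 2 also had a stronger summit 613 bp upstream, with a signal of 11.4 and rank 5062, near the pooled one. The optimal list had nothing nearer than 5725 bp, at panl-3, a gene of the poly(A) nuclease complex (signal 46.7).

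Many worm genes that follow closely behind another are read from a promoter upstream of the leading gene, in an operon. Whether lin-37 and lin-52 are read in this way was not tested. Over all protein-coding genes, 39 of 1909 with a same-strand gene ending within 200 bp upstream were bound, 2.04%, against 1594 of 18064 without one, 8.82%. The limit of 200 bp was chosen after the data were seen, and this is a description over genes, which can share peaks. With a gap of 500 bp the share was 5.03% of 3618 genes, against 8.87% of the others. None of the 5 bound genes had such a neighbour within 200 bp, but neither did 1594 of all 1633 bound genes, nor 18064 of all 19973 genes. The gap to the nearest upstream gene on the same strand was at least 4414 bp for each of the 5. It was 6461 bp for dpl-1, which was not bound, so a wide gap was not particular to the bound genes.

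**Figure D2:**
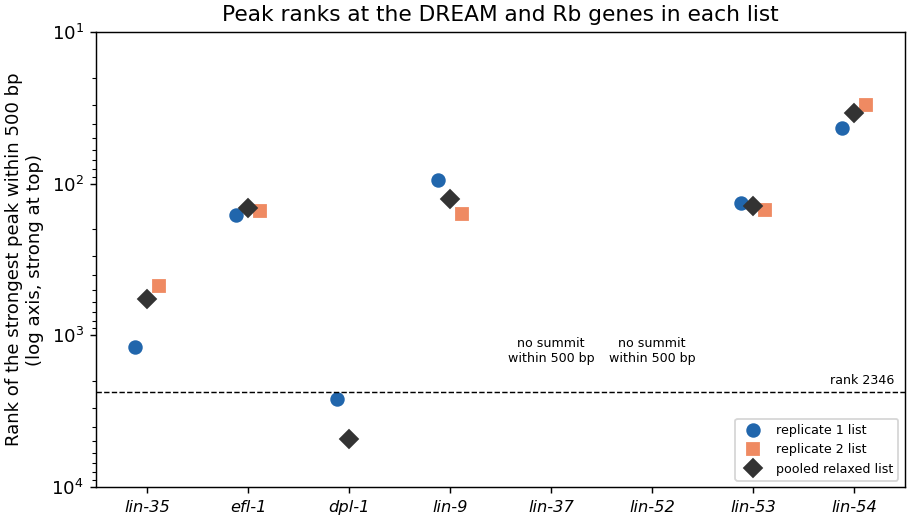
Rank of the strongest peak within 500 bp of each gene start, on a log axis with strong peaks at the top, in the relaxed list of replicate 1 (circles), of replicate 2 (squares) and of the pooled data (diamonds). The dashed line marks rank 2346, the size of the optimal list. Of the 5 bound genes lin-35 has the widest gap between replicates, ranks 1186 and 473, and dpl-1 has no square because replicate 2 had no summit within 500 bp.

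Ordered by pooled signal, lin-54 (296) came before lin-9 (182), lin-53 (171), efl-1 (167), lin-35 (88.0) and dpl-1 (18.9). In each replicate lin-54 ranked above, and lin-35 below, the group of lin-9, lin-53 and efl-1. Within that group the replicates disagreed. Replicate 1 placed lin-9 before lin-53 and efl-1, and replicate 2 placed it after both, so lin-9 was not separated from either. The ranks of lin-53 and efl-1 kept their order but differed by very little in replicate 2, 149 and 151.

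The bound genes had strong peaks for peaks at gene starts. Their median signal was 171, against 61.5 over all 1246 optimal peaks with a protein-coding start within 500 bp. Of those 1246 peaks, 98.6% were weaker than that of lin-54, 93.1% weaker than that of lin-9, 92.2% weaker than that of lin-53, 92.1% weaker than that of efl-1 and 69.4% weaker than that of lin-35. A peak of rank 150 or better within 500 bp was found at 4 of the 8 genes, against 0.686% of all protein-coding genes, 137 in number. That rank was chosen after the values of the 4 genes were seen, and the shares describe these lists only. Of the 4, only efl-1 and lin-9 were the nearest start to their summit. The lin-54 summit was 35 bp from rpl-12 and 358 bp from lin-54, and the lin-53 summit was 215 bp from nra-2 and 252 bp from lin-53. The strongest signal and the median signal thus came from peaks nearer to other genes.

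**Figure D3:**
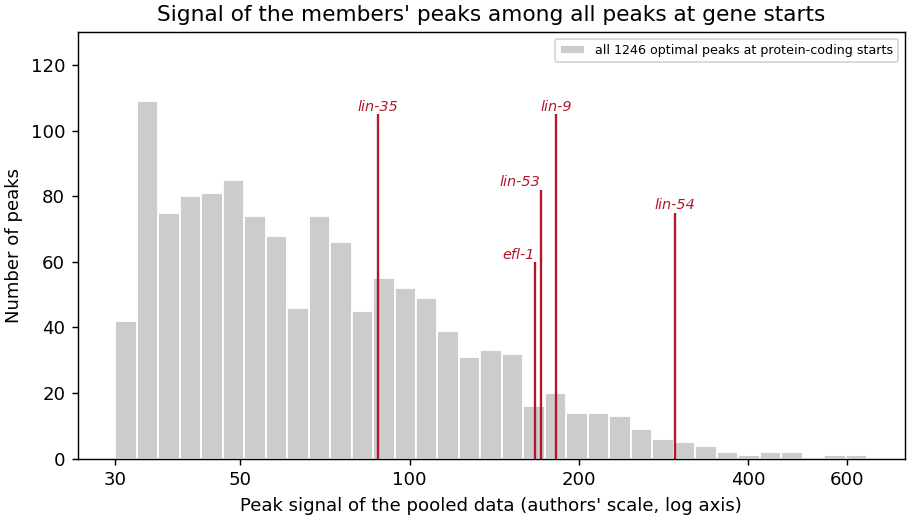
Histogram of the authors' signal (log axis) of the 1246 optimal peaks with a protein-coding gene start within 500 bp, with the number of peaks on the vertical axis. Red lines mark the peaks of the 5 bound genes, whose heights have no meaning. The peaks of efl-1, lin-53, lin-9 and lin-54 lie in the upper tail, from 167 to 296, and that of lin-35 nearer the middle at 88.0.

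In position the peaks were ordinary. The 5 summits lay 154 to 358 bp upstream, with a median of -190 bp, against a median of -177 bp over all 1633 bound genes (interquartile range -282 to -99 bp). Of all bound genes 13.6% had a summit farther from the start than lin-54. Of the 5 bound genes, lin-35, lin-53 and lin-54 shared the peak with 1 other protein-coding start each, against 783 of all 1633 bound genes, 47.9%, with a shared peak. In width the set divided. The peaks of efl-1, lin-53, lin-9 and lin-54 were 74, 102, 118 and 165 bp wide, and that of lin-35 had the width of 280 bp that is the most frequent in the optimal list. Narrower peaks made up 80.7% of the 150 optimal peaks of highest rank and 1.09% of the other 2196, so the narrow width of these 4 was usual for their rank.

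The genes with optimal peaks just above and below each bound gene in signal were of mixed function. Next to lin-54 stood puf-9, a Pumilio-family gene (303), above it, and gmps-1, a GMP synthetase gene, with cap-2, an actin capping gene (294), below it. Next to lin-9 stood dnj-9, a J-domain gene (183), and cpsf-1, a polyadenylation factor gene (180). The gene mrpl-28, for a mitochondrial ribosomal protein (167), stood between lin-53 and efl-1, with cept-2 (172) above them and ctf-4 and eef-1G, which shared a peak (167), below. Next to lin-35 stood agef-1, an Arf exchange factor gene (88.1), and rheb-1 with spk-1 (87.9). The likeness here is closeness in signal within the optimal list alone.

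The bases at the summits were then compared with the motifs through which DREAM reaches DNA, and with other regulatory words, 8 in all, on both strands. TTTGAA, 1 form of the cell cycle homology region, was found within 50 bp of the summit on either strand at 3 of the 5 bound genes, against 16.0% of all 2346 optimal summits. It stood from 25 bp downstream of the lin-9 summit, from 11 bp downstream of the lin-54 summit and from 30 bp upstream of the lin-53 summit. Within 100 bp it was also found at efl-1, making 4 of 5 against 31.9%. The ZK418.5 and dpl-1 windows printed above hold it as well. It is a common word in promoters, present in 62.5% of windows from 250 bp before to 50 bp after the 19973 starts, and in 6 of the 8 such windows here. The form TTCGAA was in none of the 5 summit windows, against 5.12% of all.

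The E2F form TTCCCGC was within 50 bp of none of the 5 summits, against 2.51% of all optimal summits. The efl-1 gene has it from 63 bp upstream of the summit, which is 228 bp upstream of its own start, and lin-53 has it 143 bp upstream of its start. It was thus in 2 of the 8 start windows, against 3.22% of all. The form TTGGCGC was in none of the start windows (2.17% of all) and within 100 bp of 1 bound summit, that of lin-54, against 5.67% of all. The homeodomain word TAATTA was within 100 bp of none of the 5 summits (4.43% of all), and was found in the start windows of dpl-1 and lin-53 (15.5% of all).

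Of the other words, GAGAGA was within 50 bp of none of the 5 summits, against 30.3% of all, and within 100 bp of those of lin-35 and lin-9, against 45.4%. TGATAA and CACGTG were within 100 bp of none (6.27% and 5.12% of all). GC content within 50 bp of the summit ran from 41.6% at lin-35 and lin-54 to 56.4% at lin-9, around a median of 48.5% over all optimal summits. A match is a word in the sequence and not a site shown to be used, and no match says only that these letters are missing from the window.

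Genes related to the pathway, not all of them part of it, were examined in 9 lists. These were drawn up with results for some of their genes known. Of 101 genes listed, 100 matched the annotation (cdc-45 did not), and 20 were bound, against 8.18% of all protein-coding genes. The count was 20 in the strongest peaks of replicate 2 alone and 19 in those of replicate 1 alone. The matching shares of all genes were 7.86% and 8.06%. The genes called were not all the same. For example, the list of LIN-53 partners in other complexes held 5 in replicate 1 and 3 in replicate 2. The S phase list held 10 of the 20 genes bound in the optimal list. With each summit given only to its nearest start 17 were bound, since the summits at cdc-6, orc-1 and cyb-1 lay nearer to another protein-coding start.

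Genes that act in S phase, many of them classic E2F and DREAM targets in animals, had 10 of 19 bound. The strongest were pcn-1, the sliding clamp (signal 160, 249 bp upstream, ranks 151 and 197 in replicates 1 and 2), cdc-6, an origin licensing factor (134, 293 bp upstream, ranks 332 and 205, a peak nearer to acin-1, which starts 86 bp from the summit), orc-5, an origin recognition subunit (81.2, ranks 455 and 833), and the licensing factor gene cdt-1 (55.8, 13 bp downstream, ranks 1433 and 1165). The others were mcm-4, psf-1, mcm-2, mcm-7, rnr-1 and orc-1, with signals from 31.1 to 49.7. The median signal was 171 over the 5 bound DREAM and Rb genes, against 45.6 over these 10 and 63.1 over all bound genes. In the strongest peaks of replicate 1 alone 9 of the 19 were bound, and in those of replicate 2 alone 8. The 1173 strongest optimal peaks held all 5 of the bound DREAM and Rb genes, against 4 of these 10 and 57.4% of all bound genes.

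Mitosis genes had 4 of 20 bound. They were the spindle checkpoint genes mdf-2 (139) and mdf-1 (35.6), the cyclin gene cyb-1 (81.2), which shared the peak of orc-5 with the summit 493 bp upstream, and the Aurora B gene air-2 (31.4). Partners of LIN-53 in other complexes had 4 of 13, namely hat-1, a histone acetyltransferase gene (205, 214 bp upstream), chaf-2, of the chromatin assembly factor (62.4), dcp-66, of the deacetylase complex (45.1), and mep-1 (35.7). The other synMuv B genes had 2 of 10, lin-36 (110, ranks 366 and 378) and mep-1 again. The synMuv A genes had 1 of 4, lin-38 (34.0). The peaks of air-2, mep-1, lin-38, mcm-2, mcm-7, rnr-1 and orc-1 were not among the 2346 strongest of both replicates. Pooled relaxed summits were within 500 bp of 17 of the 19 S phase genes and 13 of the 20 mitosis genes. They lay at 9 of 13 LIN-53 partners, 4 of 10 other synMuv B genes and 2 of 4 synMuv A genes. The share of all genes with such a summit was 27.4%.

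No gene was bound among the 13 listed cyclin-dependent kinase and G1 regulators, which include cdk-4, cyd-1 and cye-1. Nor was any among the 10 germline genes that DREAM and other synMuv B proteins keep silent in the soma, such as pgl-1 and glh-1. The paralogs efl-2 and rba-1 were not bound either, nor were the 12 genes listed for the vulval Ras pathway. That list includes lin-15B, a synMuv B gene that is also in the list of other synMuv B genes. At a share of 8.18% in all genes, lists of this length hold few bound genes in any case. Pooled relaxed summits were within 500 bp of 4 of the 13 kinase and G1 genes and 1 of the 2 paralogs. They were also found at 1 of the 10 germline genes and 4 of the 12 genes in the Ras list. Over all genes the share was 27.4%. In the strongest peaks of replicate 2 alone 1 of the 13 kinase and G1 genes was bound. No other gene of these lists was bound in the strongest peaks of either replicate alone.

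**Figure D4:**
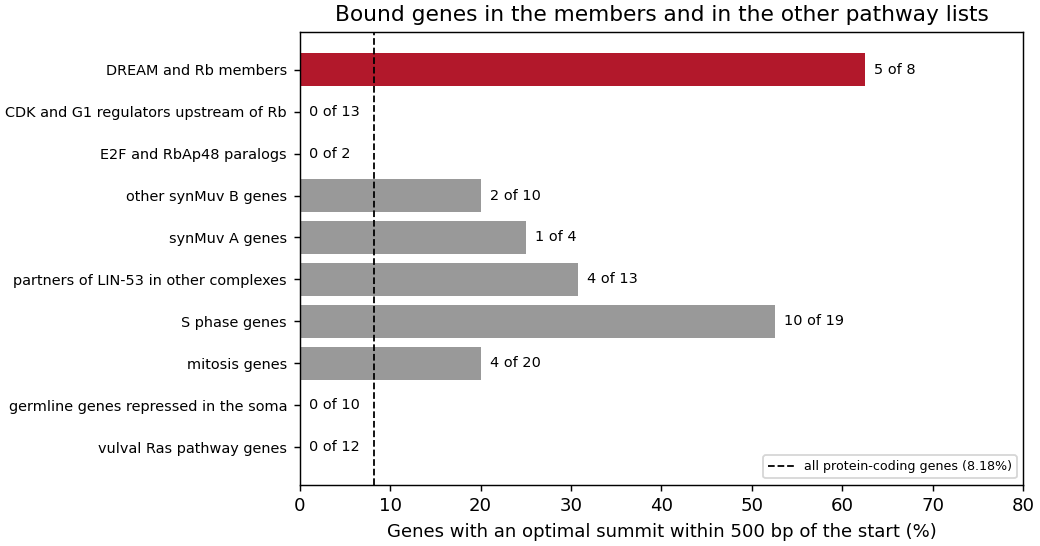
Share of genes with an optimal summit within 500 bp of the start, in percent, for the 8 DREAM and Rb genes (red) and for 9 lists of related genes (grey), with the number bound of the number matched beside each bar. The dashed line is the share of all protein-coding genes, 8.18%. The DREAM and Rb genes (5 of 8) and the S phase genes (10 of 19) reach farthest beyond the line.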

How the data were processed

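Peak lists from ChIP-seq of 2 biological replicates were analysed. Per the deposited file descriptions, relaxed lists were called for each replicate and for the pooled data against a control alignment, and the optimal list was derived from those 3. The sources used here do not give the aligner, peak caller, IDR threshold or read counts. Signal is the authors' own value per peak, with no unit stated, and the deposited score of each peak, which reaches a ceiling, was not used. The lists on ce10 were not used, since no annotation of that build was at hand. The ce11 lists were placed on the Ensembl release 115 annotation of WBcel235, with positions counted from 1.

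The members, lists, motifs and the rule for named genes were chosen with earlier results of these data known. The rule took every member, every gene that shares a member's nearest summit, up to 4 bound genes per list by signal, and the genes of the peaks directly above and below each bound member in signal. Where further bound genes of a list are named, they complete its count. Genes for piRNAs were left out of the search for starts that share a summit. Alternatives changed the distance, side, start, peak list and overlap, and left out each replicate by taking the top 2346 peaks of the remaining one. The rule for distance and strand was tested on planted summits. Python 3.11.15 and SciPy 1.17.1 were used.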

Additional observations from a re-analysis of the deposited data

How the results depend on the processing

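The count of 5 bound members was the same in 6 of the 10 alternatives, which were 1000 bp, only the 500 bp upstream, any transcript start, the 1173 strongest optimal peaks, and each replicate left out. It was 6 with the pooled relaxed list, 3 at 250 bp, 3 with each summit given to its nearest start, and 0 when the peak itself had to overlap the start, since each of these peaks ended upstream. Over all protein-coding genes the share was 10.3% at 1000 bp, 7.53% with only the 500 bp upstream and 8.65% with any transcript start. In the 1173 strongest peaks it was 4.7%, and it was 7.86% without replicate 1 and 8.06% without replicate 2. The count of 1633 genes was 1065 at 250 bp, 1237 with each summit given to its nearest start and 938 in the 1173 strongest peaks. It was 5476 with the pooled relaxed list and 512 with overlap of the start. For the genes of the other lists the count of 20 was 9 in the 1173 strongest peaks, 54 with the pooled relaxed list and 5 with overlap of the start. With a gap of 500 bp in place of 200 bp, chosen after seeing the data, the share of bound genes close behind another gene was 5.03%, against 2.04%. At 100 bp it was 2.6%. Starts of other transcripts moved the nearest optimal summit only at lin-52, to 5545 bp, and put a weak replicate 2 summit within 500 bp of lin-52. The window of 100 bp around summits changed the member counts of 3 motifs, given above, by more than 1.5 times and left those of the other 5 motifs within 1.5 times. Widths and signals are fixed by the authors' peak caller. With read depth unknown, a missing peak at lin-37 or lin-52 says only that none was called in these lists. No paired analysis was possible because the series holds 1 group.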
